A study of Mus musculus with 6 samples.

Results

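Plppr3, Tenm2, Wnk4, Phldb1, Cdh4, Tmtc1, Brinp1, Arhgef19, Arl4a and Fam117a are 10 mouse genes of adhesion, signalling and transport that were lower in K14-Cre+ than in K14-Cre- epidermal cells. They were chosen by that difference itself, the K14-Cre+ over K14-Cre- contrast of the counts, as 10 of 38924 genes in the table, and they belong to no single known pathway. The libraries came from total RNA of purified mouse CD49f+ epidermal cells, 6 samples in all. CD49f, or integrin alpha 6, sits on the matrix-facing surface of keratinocytes in the basal layer. The 3 K14-Cre+ samples had Rnaseh2b flox/flox alleles and a Cre recombinase driven by the keratin 14 promoter, which is active in basal keratinocytes and in other epithelial cells that express keratin 14. The 3 K14-Cre- samples had the same Rnaseh2b flox/flox alleles without the Cre. Rnaseh2b codes for part of RNase H2, which cuts DNA at ribonucleotides left in it during replication. The labels give no age and do not say that the replicates are separate animals, so errors and p-values measure only how far these samples lie apart, which may be technical. By sex-linked transcripts the K14-Cre+ group held 1 female and 2 male libraries and the K14-Cre- group 2 female and 1 male, so each group came from more than 1 animal.

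Library totals ran from 22948779 to 31718094 counts. Levels are given as CPM, the usual count of a gene relative to the library total, after TMM scaling, which evens out differences in composition between libraries, and 3 counts corresponded to between 0.0922 and 0.143 CPM. The targeted gene Rnaseh2b had 172, 90 and 69 counts in K14-Cre+ replicates 1, 2 and 3, against 543, 504 and 570 in K14-Cre- replicates 1, 2 and 3, which matches the labels. The count is per gene, so reads from exons that Cre leaves in place are included. Itga6, the gene of CD49f, was abundant in both groups, at 322, 290.3 and 409 CPM in K14-Cre+ libraries, against 291, 316 and 290.5 CPM in K14-Cre- libraries.

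Several of the 10 genes act where a cell meets its neighbour or its matrix. Teneurins and classical cadherins are surface proteins that bind partners on other cells, and enzymes of the TMTC family add mannose to the extracellular domains of cadherins in the endoplasmic reticulum, as shown in human cells. On the inner side of the membrane, the GTPases RhoA and ARF6 and proteins that anchor microtubules shape the actin and microtubule cortex, and WNK kinases set the activity of chloride cotransporters. Many of these genes are best known from the nervous system or the kidney rather than from skin.

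All 10 genes passed the count filter and all 10 were among the 17 genes called lower by the quasi-likelihood test of edgeR, at an adjusted p under 0.05, out of 15525 tested (0.11% of them, and 0.515% called in either direction). That call and its direction chose the genes, so their values are given as a description and nothing is read from the count. Their median log2 fold change, K14-Cre+ over K14-Cre-, was -0.77, against a median of -0.005 over all genes tested. Just inside the threshold lay Tmtc1, with an adjusted p of 0.0485 by edgeR, and just outside lay Gna14, which encodes a G protein alpha subunit, with an adjusted p of 0.0547 and a log2 fold change of -1.03. In each of the 10 genes every K14-Cre+ library lay below every K14-Cre- library, which held for 13.8% of all genes tested.

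**Figure D1:**
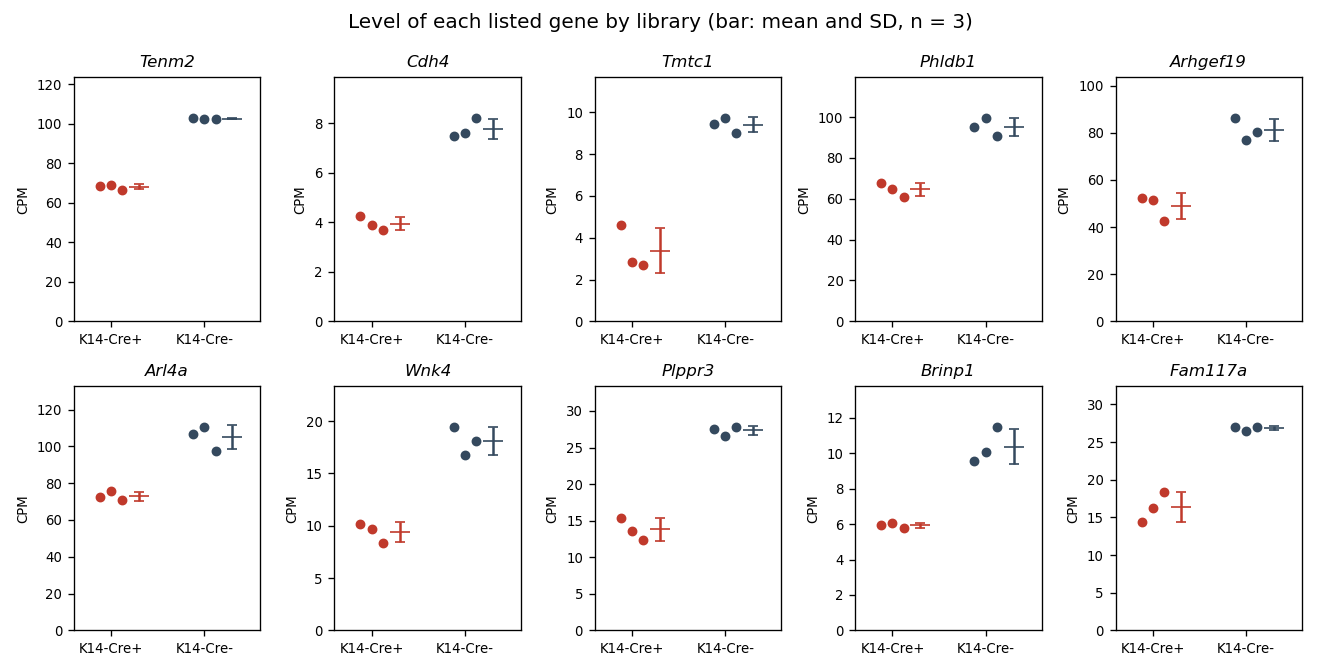
Level of each of the 10 genes in CPM (linear axis from 0) in the 3 K14-Cre+ and the 3 K14-Cre- libraries; points are libraries, in order of replicate number, and the bar beside them is the mean with its SD. In every panel the K14-Cre+ points lie below all K14-Cre- points, and the widest spread relative to the mean is that of Tmtc1 in K14-Cre+ libraries.

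Tenm2 encodes teneurin 2, a large transmembrane protein that binds latrophilins, a group of adhesion receptors, on a facing cell. It lay at 68.8, 69.2 and 66.7 CPM in K14-Cre+ replicates 1, 2 and 3, against 103, 103 and 103 CPM in the K14-Cre- libraries. The libraries of a group were almost level: the coefficient of variation was 1.97% in K14-Cre+ and 0.272% in K14-Cre- libraries. The K14-Cre- libraries held 2497 to 2697 counts of Tenm2, and counting error alone gives a wider spread than theirs. Their closeness is therefore no measure of how little the gene varies. The log2 fold change was -0.59 (SE 0.061, n = 3 each). Tenm2 (ENSMUSG00000049336) spans 1229309 bases on the minus strand of chromosome 11 (36006656 to 37235964, mm10), with 35 separate exon blocks counted, and is the longest of the 10 genes.

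Cdh4 encodes R-cadherin, a classical cadherin first known from the retina. It was sparse, with 4.24, 3.89 and 3.71 CPM in K14-Cre+ libraries, against 7.50, 7.60 and 8.22 CPM in K14-Cre- libraries. K14-Cre+ cells thus held 50.8% of the K14-Cre- mean, with a log2 fold change of -0.97 (SE 0.13). Its counts ran from 78 to 138 in K14-Cre+ and from 185 to 216 in K14-Cre- libraries, so counting error is larger relative to its level than for Tenm2. Cdh4 (ENSMUSG00000000305) lies on the plus strand of chromosome 2 (179442431 to 179899373, mm10).

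Tmtc1, which encodes one of the mannosyltransferases that act on cadherins, had the largest fold difference of the 10. It lay at 4.61, 2.83 and 2.71 CPM in K14-Cre+ replicates 1, 2 and 3, against 9.47, 9.73 and 9.02 CPM in K14-Cre- libraries. Replicate 1 stood above the other two K14-Cre+ libraries and was still at 51.1% of the lowest K14-Cre- library. The log2 fold change was -1.46 (SE 0.22), and -1.76 without K14-Cre+ replicate 1. Fibroblast, endothelial and smooth muscle markers were also highest within the K14-Cre+ group in replicate 1 (values below). Within the K14-Cre- group these markers were highest in replicate 3, where Tmtc1 was lowest, at 9.02 CPM. Their part in the level of Tmtc1 was not tested. Tmtc1 (ENSMUSG00000030306) lies on the minus strand of chromosome 6 (148232430 to 148444389, mm10).

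Phldb1 encodes LL5 alpha, a phosphoinositide-binding protein of the cell cortex related to LL5 beta, which holds microtubule ends near sites of matrix adhesion. It lay at 67.9, 64.7 and 61.1 CPM in K14-Cre+ libraries, against 95.4, 99.6 and 90.8 CPM in K14-Cre- libraries. The groups were separated by 22.9 CPM at their nearest, and the log2 fold change was -0.56 (SE 0.073). Phldb1 (ENSMUSG00000048537) is on the minus strand of chromosome 9 (44686304 to 44735198, mm10).

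Arhgef19 encodes WGEF, an exchange factor that activates RhoA and, in mouse epidermis, is a target of the transcription factor GRHL3 during wound closure. It lay at 52.6, 51.5 and 42.7 CPM in K14-Cre+ libraries, against 86.4, 76.9 and 80.5 CPM in K14-Cre- libraries. Per kilobase of counted exon it was the most abundant of the 10, at 11.5 CPM per kilobase in K14-Cre+ and 19.2 in K14-Cre- cells. The log2 fold change was -0.73 (SE 0.098). Arhgef19 (ENSMUSG00000028919) lies on the plus strand of chromosome 4 (141239499 to 141257564, mm10).

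Arl4a encodes a small GTPase of the ARF-like group that sits at the plasma membrane and recruits cytohesins, which activate ARF6. It lay at 72.3, 75.6 and 70.9 CPM in K14-Cre+ libraries, against 107, 111 and 97.7 CPM in K14-Cre- libraries. This was the smallest fold difference of the 10, with K14-Cre+ cells at 69.4% of the K14-Cre- mean and a log2 fold change of -0.53 (SE 0.075). Arl4a (ENSMUSG00000047446) is on the minus strand of chromosome 12 (40005447 to 40038025, mm10).

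Wnk4 encodes a kinase which, in kidney, controls sodium-chloride cotransport through the kinases SPAK and OSR1. It lay at 10.2, 9.69 and 8.36 CPM in K14-Cre+ libraries, against 19.5, 16.8 and 18.1 CPM in K14-Cre- libraries. The highest K14-Cre+ library was at 60.6% of the lowest K14-Cre- library, and the log2 fold change was -0.94 (SE 0.11). Wnk4 (ENSMUSG00000035112) lies on the plus strand of chromosome 11 (101260567 to 101277409, mm10).

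Plppr3 encodes a brain-enriched membrane protein related to lipid phosphate phosphatases. It lay at 15.4, 13.5 and 12.4 CPM in K14-Cre+ libraries, against 27.6, 26.6 and 27.8 CPM in K14-Cre- libraries. K14-Cre+ cells held 50.4% of the K14-Cre- mean, and the log2 fold change was -0.98 (SE 0.098). Plppr3 (ENSMUSG00000035835) lies on the minus strand of chromosome 10 (79860475 to 79874634, mm10), where Ptbp1 on the opposite strand covers 5.76% of its exon length. The strand setting of the counting is not given, so reads in the shared stretch cannot be told apart; for Ptbp1 the log2 fold change was -0.13 (SE 0.091; adjusted p by edgeR 0.466).

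Brinp1 encodes a protein of the nervous system that slows the cell cycle when overproduced in cultured cells. It lay at 5.93, 6.06 and 5.80 CPM in K14-Cre+ libraries, against 9.59, 10.1 and 11.5 CPM in K14-Cre- libraries, with a log2 fold change of -0.81 (SE 0.12). Here the K14-Cre+ libraries were the tighter group, with a coefficient of variation of 2.24%, against 9.56% in K14-Cre- libraries. Brinp1 (ENSMUSG00000028351) is on the minus strand of chromosome 4 (68761514 to 68954397, mm10).

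Fam117a, for which no function is given here, lay at 14.4, 16.2 and 18.4 CPM in K14-Cre+ replicates 1, 2 and 3, against 27.0, 26.5 and 27.0 CPM in K14-Cre- libraries. The log2 fold change was -0.72 (SE 0.10). Its K14-Cre+ libraries stood in an order unlike that of the other genes, with replicate 3 highest and replicate 1 lowest. Fam117a (ENSMUSG00000038893) lies on the plus strand of chromosome 11 (95337018 to 95381872, mm10).

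Ordered by level in K14-Cre- cells, in CPM per kilobase of counted exon, the 10 genes were Arhgef19 (11.5 in K14-Cre+ and 19.2 in K14-Cre- cells), Arl4a (9.47 and 13.6), Phldb1 (8.99 and 13.3), Tenm2 (5.95 and 8.96), Fam117a (5.40 and 8.86), Plppr3 (3.17 and 6.28), Wnk4 (2.27 and 4.37), Brinp1 (0.959 and 1.68), Tmtc1 (0.394 and 1.10) and Cdh4 (0.547 and 1.08). Against all genes tested, whose median in K14-Cre- cells was 5.2 CPM per kilobase, Arhgef19 stood at the percentile 81.2 and Cdh4 at the percentile 21.0. The K14-Cre- libraries of Arl4a and Phldb1 overlapped, as did those of Tmtc1 and Cdh4, so the order within these pairs is not resolved. Those of Tenm2 (8.94 to 8.98) and Fam117a (8.76 to 8.92) nearly touched, so their order is not resolved either. The other neighbours in the order did not overlap.

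Among the K14-Cre+ libraries, 9 of the 10 genes were lowest in replicate 3, and the remaining 1, Fam117a, in replicate 1. The median of the 10 genes lay at 56.8%, 59.5% and 54.2% of the K14-Cre- mean in K14-Cre+ replicates 1, 2 and 3, against 101%, 98.3% and 99.9% in K14-Cre- replicates 1, 2 and 3. The spread between libraries was smaller than is usual in this table: the median coefficient of variation of the 10 was 8.42% in K14-Cre+ and 4.83% in K14-Cre- libraries, against 12.8% and 7.82% over all genes tested. A small spread is part of what a call rests on, so this follows in part from how the genes were chosen.

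The call of all 10 depended on the libraries and the scaling. By edgeR, 10 were called without K14-Cre+ replicate 3, 2 without replicate 1 (Plppr3 and Tmtc1), and 0 without K14-Cre+ replicate 2 or without any 1 K14-Cre- library. With sex as a covariate 3 were called (Plppr3, Tenm2 and Phldb1), and with scaling by total count 4 (Plppr3, Tenm2, Wnk4 and Fam117a), while the direction of each of the 10 genes stayed the same. Limma-voom called 9 of the 10, all but Brinp1. Between the most different alternatives the fold change of Tmtc1 differed 1.36-fold, and that of each other gene at most 1.15-fold. Values within each sex rest on 1 library in 1 of the groups, so they allow no test.

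**Figure D2:**
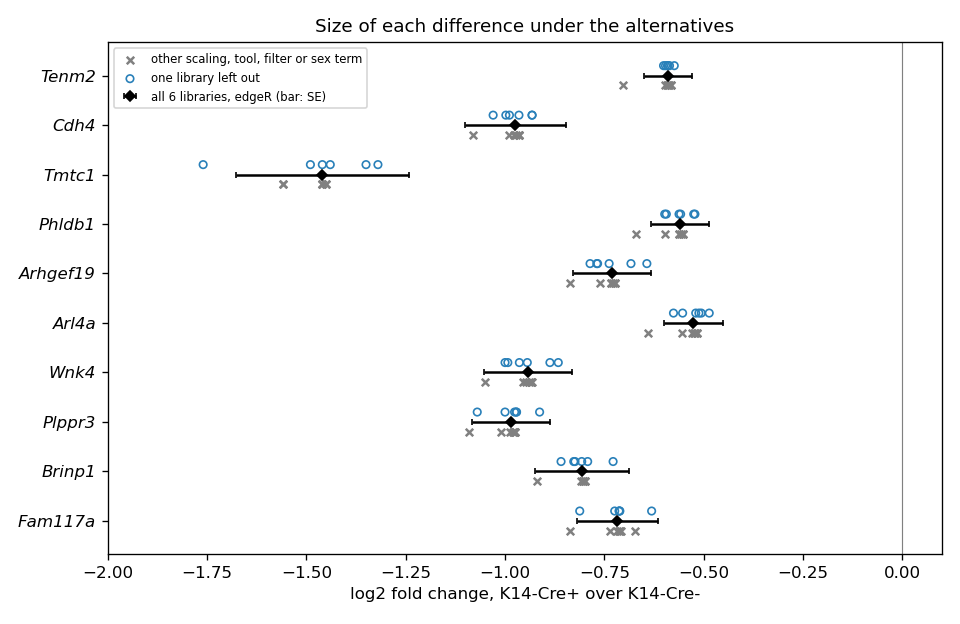
Log2 fold change of each of the 10 genes, K14-Cre+ over K14-Cre-, with all 6 libraries by edgeR (black, bar = SE), with 1 library left out (blue circles) and under other scaling, tools, filters or a sex term (grey crosses). No value crosses 0, and the widest range is that of Tmtc1, which reaches -1.76.

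The family members of the 10 genes were not used to choose them. Lists of relatives and known partners held 137 other genes, of which 118 were tested. By edgeR 1 of the 118 was lower and 0 were higher, which is 0.847% lower against 0.11% of all genes tested, and 0 higher against 0.406%; 29 of the 118 (24.6%) had unadjusted p under 0.05, against 18.8% of all genes tested. DESeq2 called 4 lower and 4 higher (3.39% each), against 2.06% lower and 3.99% higher of the genes it gave an adjusted p, and limma-voom 0, against 0.0902% lower and 0.335% higher. These shares over all genes are the background for each list that follows. Their median log2 fold change was 0.04, with 53 below 0 and 65 above.

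The gene called lower was Wnk2, a WNK kinase and so a relative of Wnk4. It lay at 59.7, 59.5 and 63.3 CPM in K14-Cre+ libraries, against 108, 87.4 and 91.0 CPM in K14-Cre- libraries. Wnk2 had no overlap between the groups, as had 13.8% of all genes tested in that direction. Its log2 fold change was -0.65 (SE 0.096; adjusted p by edgeR 0.0449). The call was lost in limma-voom (adjusted p = 0.0508), with sex as a covariate (adjusted p by edgeR 0.0689), without K14-Cre+ replicate 1 or 2 (adjusted p by edgeR 0.0904 and 0.154) and without K14-Cre- replicate 1, 2 or 3 (adjusted p by edgeR 0.176, 0.164 and 0.193). Over all alternatives its adjusted p ran from 1.04e-05, in DESeq2, to 0.193. Wnk1, the most abundant per length at 19.3 CPM per kilobase in K14-Cre+ and 15.2 in K14-Cre- cells, did not pass the threshold (adjusted p by edgeR 0.257). Wnk3 was near absent, at 0.126 and 0.139 CPM per kilobase in K14-Cre+ and K14-Cre- cells. Of the 16 tested relatives and partners of Wnk4, the other 15 did not pass by edgeR, and 5 of the 16 had unadjusted p under 0.05 (31.2%, against 18.8% of all). They include the SPAK and OSR1 scaffold gene Cab39 (log2 fold change 0.36, SE 0.089; adjusted p by edgeR 0.127), the potassium-chloride cotransporter gene Slc12a7 (0.31, SE 0.11) and the ubiquitin ligase gene Nedd4l (-0.27, SE 0.10). Of the 16, DESeq2 called 1 lower, Wnk2, and 1 higher, Cab39 (adjusted p by DESeq2 0.0125). That is 6.25% each, against 2.06% lower and 3.99% higher of all, and limma-voom called 0. The kidney cotransporter genes Slc12a1 and Slc12a3, known outlets of WNK signalling, had at most 3 counts in any library.

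Of 16 tested genes of protein O-mannosylation, 0 passed by edgeR, 5 had unadjusted p under 0.05 (31.2%, against 18.8% of all genes tested), DESeq2 called 1 lower and 1 higher, and limma-voom 0. Tmtc3 and Tmtc4, relatives of Tmtc1, lay on opposite sides of 0. Tmtc4 lay at 16.4, 13.85 and 10.45 CPM in K14-Cre+ libraries, against 23.4, 25.05 and 23.6 CPM in K14-Cre- libraries (log2 fold change -0.82, SE 0.16; adjusted p by edgeR 0.0815). Tmtc3 lay at 47.5, 50.6 and 45.8 CPM in K14-Cre+ libraries, against 35.9, 38.1 and 35.2 CPM in K14-Cre- libraries (log2 fold change 0.40, SE 0.074; adjusted p by edgeR 0.0783). The groups did not overlap for either gene, as for 28% of all genes tested. Neither gene passed the threshold with all libraries, whereas without K14-Cre+ replicate 3 both did (adjusted p by edgeR 0.0196 for Tmtc4 and 0.031 for Tmtc3). Over all alternatives the adjusted p ran from 0.000652 to 0.333 for Tmtc4 and from 0.00204 to 0.338 for Tmtc3, with the lowest from DESeq2. Per kilobase Tmtc3 was the most abundant of the 4, at 5.37 CPM in K14-Cre+ and 4.07 in K14-Cre- cells, whereas Tmtc1 lay at 0.394 and 1.10. Tmem260, which adds mannose to other surface receptors, had -0.27 (SE 0.083; adjusted p by edgeR 0.176).

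**Figure D3:**
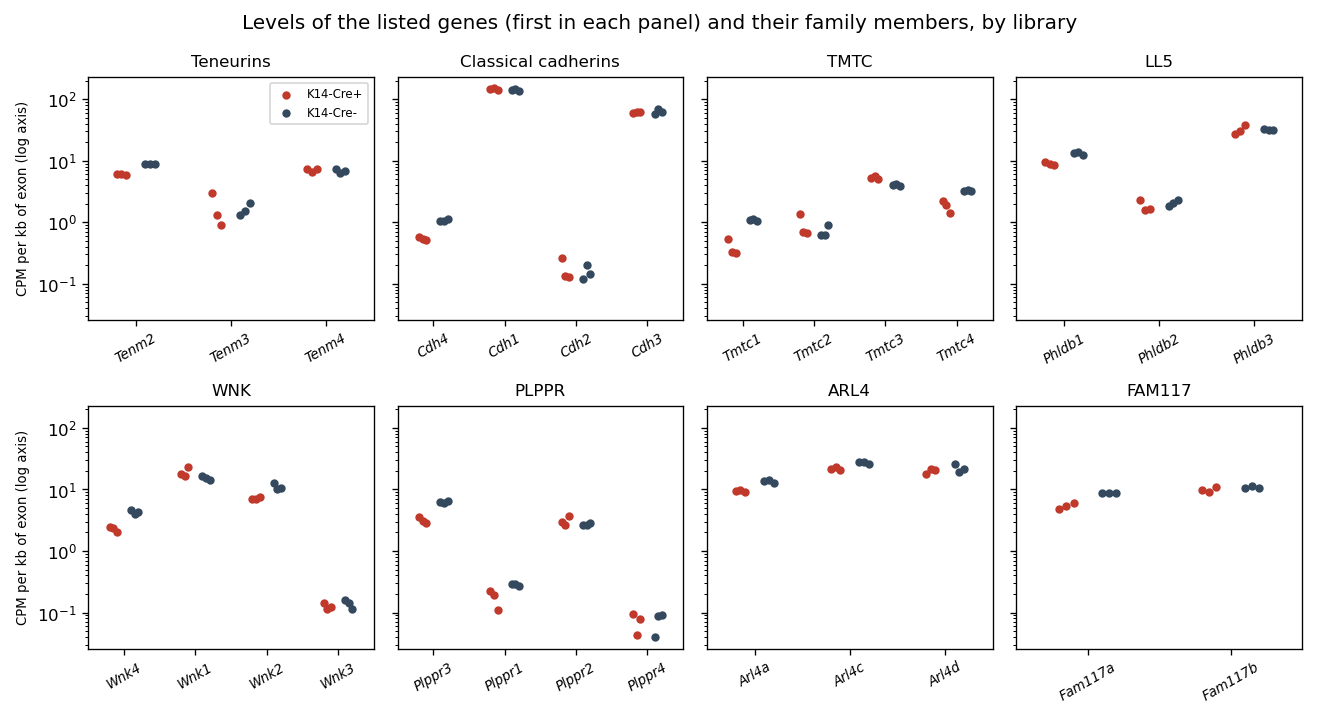
Levels of 8 families in CPM per kilobase of exon (log axis), by library, with the listed gene first in each panel and K14-Cre+ points left of K14-Cre- points. Cdh4 and Tmtc1 lie well below their most abundant relatives, and among the relatives shown Wnk2, Tmtc4, Plppr1 and Arl4c also have all K14-Cre+ points below all K14-Cre- points (13.8% of all genes tested), whereas Tmtc3 and Wnk1 have all of them above (14.1%).

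Among 14 tested cadherin and catenin genes 0 passed by edgeR, 3 had unadjusted p under 0.05 (21.4%, against 18.8% of all), 1 lower by DESeq2 and 0 by limma-voom. The cadherins that hold epidermal cells together were far above Cdh4 per length. Cdh1, which encodes E-cadherin, lay at 146 and 142 CPM per kilobase in K14-Cre+ and K14-Cre- cells, and Cdh3, which encodes P-cadherin, at 61.2 and 62.9, against 0.547 and 1.08 for Cdh4. Cdh2, which encodes N-cadherin, was lower still, at 0.175 and 0.156 CPM per kilobase. Cdh24 had a log2 fold change of -0.74 (SE 0.21; adjusted p by edgeR 0.163), Cdh19, a gene of Schwann cell precursors and related neural crest cells, 1.31 (SE 0.38; adjusted p by edgeR 0.166), and Jup, the plakoglobin gene, 0.39 (SE 0.14; adjusted p by edgeR 0.214).

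For Tenm2, 8 relatives and partners were tested and 0 passed by edgeR, 1 had unadjusted p under 0.05 (12.5%, against 18.8% of all), and DESeq2 called 0, as did limma-voom. Tenm4 was similar in abundance, at 7.05 CPM per kilobase in K14-Cre+ and 6.85 in K14-Cre- cells, and Tenm2 itself at 5.95 and 8.96. Tenm3 lay at 1.75 and 1.65 CPM per kilobase. For the receptor genes Adgrl2, Flrt1 and Adgrl1 the log2 fold changes were 0.38 (SE 0.16), -0.32 (SE 0.15) and -0.22 (SE 0.10), with adjusted p by edgeR of 0.264, 0.298 and 0.301.

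Relatives of the cortical genes gave 0 calls by edgeR in each list. Of 13 genes around Phldb1, 3 had unadjusted p under 0.05 (23.1%, against 18.8% of all), with 1 higher by DESeq2 and 0 by limma-voom. Clasp2, which encodes a microtubule plus-end protein that LL5 proteins bind, had a log2 fold change of 0.31 (SE 0.068; adjusted p by edgeR 0.103), and the liprin genes Ppfia1 and Ppfibp1 lay at 0.37 (SE 0.14) and 0.23 (SE 0.089). Phldb2, the LL5 beta gene, lay at 1.86 and 2.05 CPM per kilobase in K14-Cre+ and K14-Cre- cells, below Phldb1 at 8.99 and 13.3. Phldb3 lay above both, at 31.7 and 31.8.

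Of 21 genes around Arhgef19, ephexin relatives and planar polarity genes among them, 5 had unadjusted p under 0.05 (23.8%, against 18.8% of all) and 0 passed by edgeR, DESeq2 or limma-voom. The cytoplasmic Wnt mediator gene Dvl2 had -0.28 (SE 0.071; adjusted p by edgeR 0.130), the grainyhead factor gene Grhl2 -0.25 (SE 0.069; adjusted p by edgeR 0.154) and the receptor gene Fzd6 0.29 (SE 0.081; adjusted p by edgeR 0.157). Among 12 genes around Arl4a, 4 had unadjusted p under 0.05 (33.3%, against 18.8% of all), with 1 lower by DESeq2 and 0 by limma-voom. Arl4c, its close relative, lay at 118.7, 127.5 and 114.9 CPM in K14-Cre+ libraries, against 153.5, 155.3 and 142.5 CPM in K14-Cre- libraries (log2 fold change -0.32, SE 0.076; adjusted p by edgeR 0.118). Arl4d lay at 28.0 ± 2.66 CPM in K14-Cre+ and 30.6 ± 4.31 CPM in K14-Cre- cells (SD, n = 3 each). The cytohesin gene Cyth3 had 0.36 (SE 0.11) and Dock1, whose product works with ELMO proteins, 0.21 (SE 0.075), and neither passed.

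Around Plppr3, 15 lipid phosphatase and lysophosphatidic acid receptor genes were tested, 0 passed by edgeR, 3 had unadjusted p under 0.05 (20%, against 18.8% of all), DESeq2 called 1 higher and limma-voom 0. Plpp6 had a log2 fold change of 0.59 (SE 0.16; adjusted p by edgeR 0.149), the receptor gene Lpar3 -0.64 (SE 0.22; adjusted p by edgeR 0.207) and Plppr1 -0.67 (SE 0.28; adjusted p by edgeR 0.259). Among the PLPPR genes, Plppr3 was the most abundant in K14-Cre- cells, at 3.17 CPM per kilobase in K14-Cre+ and 6.28 in K14-Cre- cells, whereas Plppr2 lay at 3.14 and 2.73, level with Plppr3 in K14-Cre+ cells. The nearest relatives of Brinp1, Brinp2 and Brinp3, had at most 6 counts in any library, and Astn2 and Astn1, astrotactin genes that share a domain type with it, stood at -0.45 (SE 0.24) and 0.56 (SE 0.42) on the log2 scale with 0 past the threshold by edgeR, DESeq2 or limma-voom and 0 with unadjusted p under 0.05. Fam117b lay at 56.6 ± 5.91 CPM in K14-Cre+ and 61.3 ± 2.15 CPM in K14-Cre- cells, with an adjusted p by edgeR of 0.517.

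The other 6 genes called lower were Rnaseh2b, Cxcr4, Nynrin, Nbl1, H2-Ab1 and Acacb. The 5 genes whose levels over the 6 libraries were most like the mean standardised level of the 10 genes were Cxcr4, a chemokine receptor gene (Pearson r = 0.998), Rnaseh2b (0.997), 2500004C02Rik (0.994), Tmem175 (0.992) and Cyb561a3 (0.991). These values describe 6 libraries of 2 groups, so any gene with a clear group difference and little spread scores high; 42 genes had an r above 0.98. Cxcr4 lay at 18.1, 16.4 and 15.5 CPM in K14-Cre+ libraries, against 29.8, 29.4 and 29.4 CPM in K14-Cre- libraries.

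Genes next to the 10 on the chromosome were compared as well. The nearest tested gene on each side gave 20 neighbours, of which 0 passed by edgeR, DESeq2 or limma-voom and 2 had unadjusted p under 0.05 (10%, against 18.8% of all). Their log2 fold changes ran from -0.42 to 0.75 with a median of -0.02, and 11 lay below 0. Of the 10 genes, 3 lay on chromosome 11, which held 8.77% of all genes tested, and 2 on chromosome 4. As many as 7 of the 10 spanned more than the median of 19890 bases over all genes tested.

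RefSeq promoter windows (GRCm38.p6, the assembly of mm10), from 250 bases before to 50 after a start, were found for 9 of the 10 genes, in 10 windows. For 7 of the 9 a start lay within 50 bases of the counted 5′ end, while the starts for Tenm2 and Arhgef19 lay 291723 and 5589 bases inside the counted gene. Arl4a had a second window, 649 bases inside it. The windows of the 4 genes with the largest fold differences among those with a window are shown to let their composition be compared, 5′ to 3′ on the strand of the gene. They are chr6:148444303-148444602 (minus strand) for Tmtc1, chr10:79874585-79874884 (minus) for Plppr3, chr11:101260317-101260616 (plus) for Wnk4 and chr4:68954348-68954647 (minus) for Brinp1. Capitals mark CACCC, or GGGTG where it lies on the other strand, the core letters bound by factors of the KLF family.
Tmtc1: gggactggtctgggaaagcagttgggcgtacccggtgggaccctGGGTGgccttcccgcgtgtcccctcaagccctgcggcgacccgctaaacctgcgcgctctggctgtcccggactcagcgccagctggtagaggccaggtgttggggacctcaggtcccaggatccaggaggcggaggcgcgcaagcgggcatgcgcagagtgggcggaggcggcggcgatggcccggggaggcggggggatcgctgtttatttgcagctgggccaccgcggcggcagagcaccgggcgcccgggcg
Plppr3: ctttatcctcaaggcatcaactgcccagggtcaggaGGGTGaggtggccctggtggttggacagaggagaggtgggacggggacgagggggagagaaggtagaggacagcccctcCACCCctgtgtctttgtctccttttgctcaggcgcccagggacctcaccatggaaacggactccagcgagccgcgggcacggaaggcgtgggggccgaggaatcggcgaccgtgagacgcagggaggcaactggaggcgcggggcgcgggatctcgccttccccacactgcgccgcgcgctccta
Wnk4: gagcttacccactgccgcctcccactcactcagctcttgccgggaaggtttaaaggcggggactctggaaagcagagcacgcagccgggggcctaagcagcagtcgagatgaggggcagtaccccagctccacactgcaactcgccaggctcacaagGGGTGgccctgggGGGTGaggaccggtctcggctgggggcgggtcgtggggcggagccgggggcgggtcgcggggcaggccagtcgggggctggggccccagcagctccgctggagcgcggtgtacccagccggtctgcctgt
Brinp1: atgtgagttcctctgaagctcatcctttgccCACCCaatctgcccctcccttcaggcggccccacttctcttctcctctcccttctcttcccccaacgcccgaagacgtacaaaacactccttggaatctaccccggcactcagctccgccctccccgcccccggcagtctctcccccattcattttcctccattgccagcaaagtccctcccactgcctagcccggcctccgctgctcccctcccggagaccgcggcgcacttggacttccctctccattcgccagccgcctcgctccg

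All 10 windows held CACCC on either strand, against 57.5% of 32851 windows of the same length. The windows were also rich in G and C, with a median of 66.5% against 52.7% over all windows, and a median of 19.5 CpG pairs against 7, and CACCC is itself rich in C. The GC box GGGCGG was found in 7 of 10 windows (35.7% of all), CCAAT in 3 (37.4%) and the E-box CANNTG in 8 (72.3%). TGANTCA, a looser form of the AP-1 site, was found in 2, those of Arhgef19 and Arl4a (7.81%). Both matches read TGAATCA, without the C or G in the middle of the AP-1 site. The TATA letters TATAAA (13.6% of all windows), the CHR letters TTTGAA (17.9%), the grainyhead letters AACNGGTT (2.09%) and the p53 decamer (8.36%) were found in 0 of the 10. E-box and TGANTCA letters were counted on both strands, as were the others, and motifs may overlap one another, as GC boxes and CACCC can. A match is a run of letters and not a measured binding site.

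Fewer cells of a type and less RNA per cell cannot be told apart in these bulk samples. Marker lists of cell types were therefore summed in each library. The hair follicle list of 7 genes, led by Krt15, Krt17 and Krt79, lay at 2790, 2880 and 2580 CPM in K14-Cre+ replicates 1, 2 and 3, against 4630, 4140 and 4320 CPM in K14-Cre- replicates 1, 2 and 3, with no overlap. By edgeR 0 of its 7 genes passed, 4 had unadjusted p under 0.05 (57.1%, against 18.8% of all genes tested), DESeq2 called 3 lower (42.9%, against 2.06%) and limma-voom 0. Krt15, a keratin gene of hair follicle stem cells and basal cells, had a log2 fold change of -0.92 (SE 0.15; adjusted p by edgeR 0.0572), and 6 of the 7 genes lay below 0. Like the 10 genes, this list had all K14-Cre+ libraries below all K14-Cre- libraries, as had the T cell, sebaceous gland and myeloid lists. Within the K14-Cre+ group Krt15 was highest in replicate 3, at 1236 CPM, where 9 of the 10 genes were lowest. The part of the hair follicle list in the levels of the 10 genes was not tested.

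Other lists differed in their own ways. The basal keratinocyte list lay at 15400, 15300 and 16900 CPM in K14-Cre+ libraries, against 16700, 14600 and 16800 CPM in K14-Cre- libraries, so the groups overlapped. The suprabasal list lay at 102000, 123000 and 138000 CPM in K14-Cre+ libraries, against 103000, 81300 and 97600 CPM in K14-Cre- libraries. The sebaceous gland list lay at 158, 160 and 120 CPM in K14-Cre+ libraries, against 235, 232 and 172 CPM in K14-Cre- libraries. The last 3 lists had 0 genes past the threshold by edgeR and limma-voom. Unadjusted p was under 0.05 for 1 of 6 basal, 4 of 5 suprabasal and 2 of 5 sebaceous genes (16.7%, 80% and 40%, against 18.8% of all genes tested). DESeq2 called 1 basal gene and 1 suprabasal gene higher (16.7% and 20%, against 3.99%) and 2 sebaceous genes lower (40%, against 2.06%). Of 7 melanocyte genes 5 rose by edgeR, among them Tyrp1 and Mlana, which act in pigment synthesis and the melanosome, while 0.406% of all genes tested rose. All 7 had unadjusted p under 0.05 (100%, against 18.8%), DESeq2 called 6 higher (85.7%, against 3.99%) and limma-voom 5 (against 0.335% of all). The sum of the melanocyte list ran from 626 to 717 CPM in K14-Cre+ and from 348 to 404 CPM in K14-Cre- libraries. T cell markers, with 4 of 4 tested genes below 0 and 0 past the threshold by edgeR or limma-voom, summed to 4.75 to 6.51 CPM in K14-Cre+ and 10.5 to 13.8 CPM in K14-Cre- libraries. All 4 had unadjusted p under 0.05 (100%, against 18.8% of all genes tested), and DESeq2 called 2 lower (50%, against 2.06%). The myeloid and Langerhans list summed to 60.2 to 75.3 CPM in K14-Cre+ and 98.2 to 141 CPM in K14-Cre- libraries, with Lyz2 higher and H2-Ab1 lower by edgeR. Of its 6 tested genes 5 had unadjusted p under 0.05 (83.3%, against 18.8% of all genes tested). DESeq2 called 3 lower and 2 higher (50% and 33.3%, against 2.06% and 3.99%). Limma-voom called 0 lower and 1 higher, so the call of H2-Ab1 was lost there. The part of these lists in the levels of the 10 genes was not tested.

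Stromal markers marked single libraries rather than groups. The fibroblast list lay at 1370, 176 and 226 CPM in K14-Cre+ replicates 1, 2 and 3, against 196, 288 and 811 CPM in K14-Cre- replicates 1, 2 and 3. The endothelial list lay at 22.6, 2.04 and 2.23 CPM in K14-Cre+ libraries, against 2.85, 8.54 and 20 CPM in K14-Cre- libraries, and the smooth muscle and pericyte list at 24.2, 8.41 and 8.55 CPM, against 8.86, 18.5 and 25.6 CPM. Without K14-Cre+ replicate 1 the edgeR call held for 2 of the 10 genes and without K14-Cre- replicate 3 for 0. It held for 0 also without K14-Cre+ replicate 2, K14-Cre- replicate 1 or K14-Cre- replicate 2, and for 10 without K14-Cre+ replicate 3. The part of the stromal lists in the levels of the 10 genes was not tested.

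Since several of the 10 genes are known from neurons, neuronal markers were set beside them. None of that list's 5 genes passed by edgeR, DESeq2 or limma-voom, and 2 had unadjusted p under 0.05 (40%, against 18.8% of all genes tested). On the log2 scale 3 of the 5, Tubb3, Snap25 and Syp, lay above 0, and 2, Rbfox3 and Stmn2, below, with a median of 0.05. Tubb3 made up most of the list, which summed to 15.5 to 26.1 CPM in K14-Cre+ and 13.1 to 15.5 CPM in K14-Cre- libraries. Syp and Snap25, genes of synaptic vesicle release, stayed at 1.43 CPM or less in every library. The neuronal nuclear protein gene Rbfox3 had at most 0.154 CPM in K14-Cre+ libraries, against 0.419 to 1.15 CPM in K14-Cre- libraries. Rbfox3 was lower in every K14-Cre+ library than in any K14-Cre- library, as were 13.8% of all genes tested, and did not pass (adjusted p by edgeR 0.1175). Its K14-Cre+ values lay near the floor of 3 counts. The part of neuronal RNA in the levels of the 10 genes was not tested. Schwann cell markers summed to 51.5 to 72.9 CPM in K14-Cre+ and 43.8 to 51.7 CPM in K14-Cre- libraries, Merkel cell markers to 4.78 to 17.4 and 5.38 to 13.8 CPM, and red blood cell genes to 26.3 to 32.8 and 32.5 to 64.5 CPM.

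**Figure D4:**
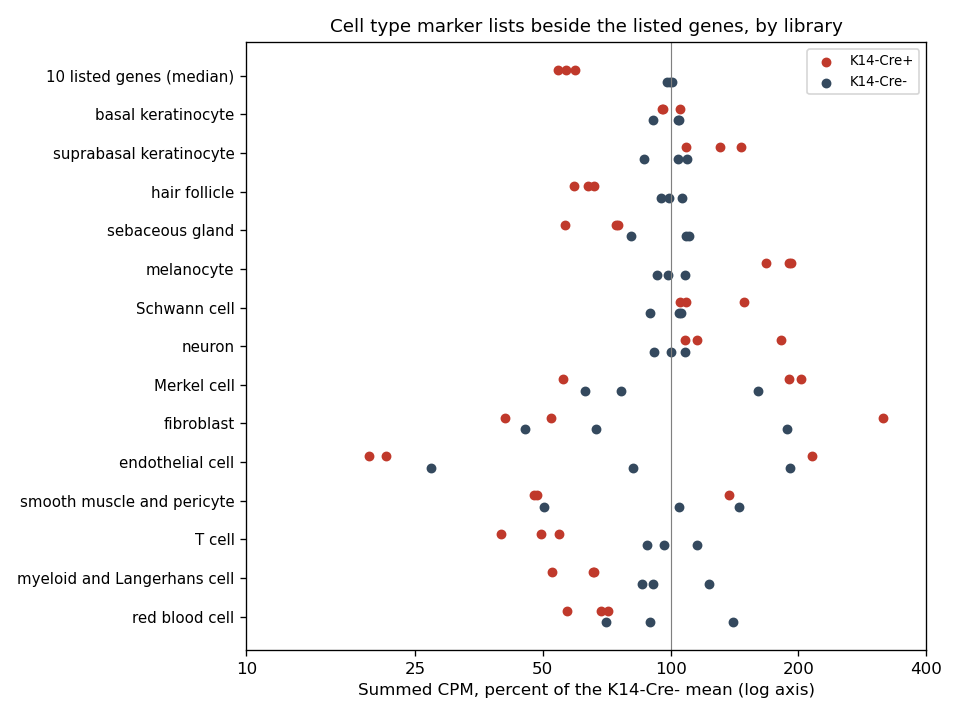
Summed CPM of each cell type marker list, as percent of its K14-Cre- mean (log axis), by library, with the median of the 10 genes in the top line; K14-Cre+ points are drawn above K14-Cre- points. The 10 genes and the hair follicle, T cell, sebaceous gland and myeloid lists have all K14-Cre+ libraries below all K14-Cre- libraries, and the melanocyte list has them above. In the neuron list the lowest K14-Cre+ and the highest K14-Cre- library are level at 15.5 CPM, with the other K14-Cre+ libraries above. The fibroblast and endothelial lists spread widely within both groups.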

How the data were processed

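Gene counts of 3 K14-Cre+ and 3 K14-Cre- libraries were used. The authors deposited these counts unnormalized, 1 column per library, per the file headers. Alignment was by GSNAP and counting by featureCounts with build mm10, per the submitters' processing notes; the sources used here do not give versions, strand setting or how shared reads were handled. A symbol was found by gene identifier for 37607 of 38924 genes, and exon length came from the same table.

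edgeR's filterByExpr (minimum count 10) kept 15525 genes. After TMM scaling they were fitted by edgeR 4.0.16 (R 4.3.3; quasi-likelihood, two-sided, no covariate) for K14-Cre+ over K14-Cre-, and p-values were adjusted by Benjamini-Hochberg across all 15525, with calls at 0.05. Sex was read from Xist and Y-linked counts. Floors of 3 counts cover counting error only. Libraries of a group differed by more than sampling noise (chi-square per degree of freedom 9.30 to 69.2).

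Alternatives were DESeq2 size factors, total count scaling, DESeq2 1.42.0, limma-voom (limma 3.58.1), other filters, sex as a covariate and leaving out each library. The 10 genes, the lists and the tests were chosen with earlier results of these data known. Named beside the 10 were the other genes called lower, from each list those past the threshold and up to 3 more with the smallest adjusted p, close paralogs with their levels, and the 5 genes of most similar pattern. Genes said to be just outside the threshold, Ptbp1 and the marker genes were named after their values were seen.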

Additional observations from a re-analysis of the deposited data

How the results depend on the processing

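The 10 genes had 130 values under the alternatives: none turned in sign, 68 stayed called and 62 were no longer past the threshold. Over all genes 17 were lower and 63 higher. Scaling by total count gave 27 higher and left 4 of the 10 genes called; it moved the median of all genes to -0.118 on the log2 scale, so that the log2 fold changes under it are lower throughout. The Wald test of DESeq2 called 288 lower and 559 higher, with 4 lower and 4 higher among the relatives and partners. Without a filter beyond 1 count, 38 were lower and 104 higher. With sex as a covariate, 8 were lower and 34 higher, 3 of the 10 genes were called, and 0 relatives and partners; limma-voom also called 0 of these lower. Leaving out 1 library gave 0 to 134 genes lower, 0 to 288 higher, 0 to 10 of the 10 genes called, and 0 to 2 relatives and partners in each direction. DESeq2 size factors and a minimum mean of 1 CPM left these counts within 1.5 times. Of 362 values of the named relatives, 345 stayed on their side of the threshold, 7 lost it, 10 gained it and 0 turned in sign. The cause of these changes was not tested, and a fit that leaves out 1 library also holds fewer libraries. Depth limits Cdh4 and Tmtc1 most, with as few as 78 and 57 counts in a library. No paired analysis was possible because the labels give the groups no shared replicate numbers.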
